A study of Drosophila melanogaster with 2 samples.

Results

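Binding of kay, the fly Fos protein, was examined at the genes that encode the subunits of the proteasome. The members were the protein-coding genes in Ensembl (dm6) whose symbol begins with Prosalpha, Prosbeta, Rpn or Rpt followed by a digit, which gave 48 of 13945 protein-coding genes. Of these, 14 encode the core particle, 18 encode the regulatory particle, and 16 carry an R or T after the number and are paralogues known in fly mainly from testis. Chromatin came from whole Drosophila melanogaster embryos aged 0 to 24 hours, males and females pooled, of a transgenic line (strain kay-GFP) that carries kay with a C-terminal GFP tag. The tagged protein was precipitated with an antibody against GFP and the DNA, sonicated to 200 to 800 bp, was sequenced (ChIP-seq). There was 1 group with 2 biological replicates, labelled 2 and 4, and no group to compare it with. Every cell of the embryo contributed, so strong binding in few cells and weak binding in many cannot be told apart.

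The proteasome degrades proteins that are marked with ubiquitin. Its core particle is a barrel of alpha rings, which form the gate, and beta rings, which hold the proteolytic sites. The regulatory particle consists of a base, whose ATPases unfold the substrate, and a lid, which removes the ubiquitin chain. In flies, as in mammals, the subunit genes are known to be raised together under proteotoxic stress by a cap'n'collar bZIP factor (cnc in fly) with a small Maf partner. AP-1, the dimer of Fos and Jun proteins, is also a bZIP factor and recognises a related sequence.

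Each of the deposited candidate lists, for replicate 2, for replicate 4 and for both pooled, held 30000 regions. The authors' optimal list held the 3860 regions that passed the irreproducible discovery rate procedure, here called IDR peaks. These were the 3860 strongest of the pooled candidates, with signals of 93.6 to 2530.6 and a median of 141.3. The signal is the authors' peak caller value for each region, in that caller's own units, and serves here to rank regions within 1 list. Read counts are not among the values in these lists, and library depth is therefore unknown. A gene was counted as bound when the summit of an IDR peak lay within 1 kb of one of its transcription start sites (TSSs).

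The subunit genes as a whole were bound about as often as other genes, and the bound ones lay mostly in the regulatory particle. Of the 48, 11 were bound (22.9%, exact Clopper-Pearson 95% interval 12.0 to 37.3%, which covers counting error only), against 21.3% of all protein-coding genes. The core particle had 2 of 14 genes bound (14.3%, interval 1.78 to 42.8%) and the regulatory particle 9 of 18 (50%, interval 26.0 to 74.0%). None of the 16 paralogues was bound (interval up to 20.6%), and without them the share was 11 of 32 (34.4%, interval 18.6 to 53.2%). The intervals of core and regulatory particle overlap, and no test across genes was made. Among genes with any pooled candidate near a TSS, 11 of 30 subunit genes were bound (36.7%), against 35.5% of all such genes. The best candidate of these 30 genes had a median signal of 62.5, against 67.5 over all 8391 genes with a candidate.

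**Figure D1:**
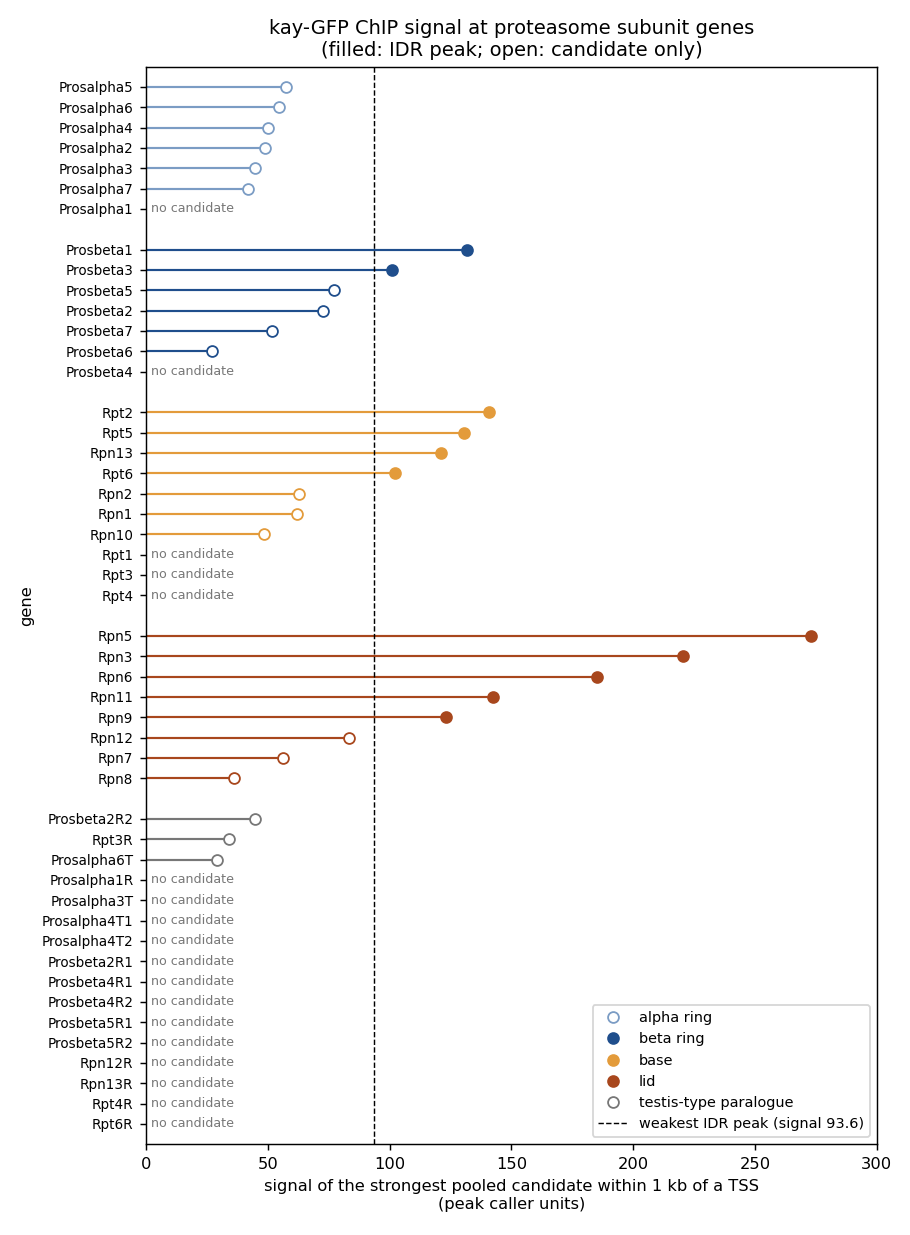
Signal of the strongest pooled candidate within 1 kb of a TSS, in peak caller units, for each of the 48 proteasome subunit genes, grouped by subcomplex. Filled points are IDR peaks and open points are candidates only; the dashed line marks the weakest IDR peak (93.6). The lid genes Rpn5, Rpn3 and Rpn6 lie highest, and all alpha ring genes lie below the line.

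The sequences around 7 of the bound summits show what lies under these peaks. Each is from the Release 6 genome (dm6), is written 5′ to 3′ on the strand of the subunit gene, and spans at least 50 bp on either side of the summit. It was widened where a searched motif lay farther out in the peak. Capitals mark the AP-1 site (TGACTCA, which reads TGAGTCA on the other strand), the element TATCGATA, and TGACNNNGC, a form of the cap'n'collar and Maf site. TGAGNNNGC and the repeat GAGAGAG were also searched, on both strands, and neither was found in the peaks of bound members. The first sequence, that of Rpn5, is shown because it holds an AP-1 site, at bases 195 to 201, which is 147 bp from the summit. The sequence of Rpn9, whose AP-1 site is centred 5 bp from its summit, is not among the 7. Rpn5 lies on the + strand (chr3R:5789180-5789385) with its summit at base 51.
Rpn5: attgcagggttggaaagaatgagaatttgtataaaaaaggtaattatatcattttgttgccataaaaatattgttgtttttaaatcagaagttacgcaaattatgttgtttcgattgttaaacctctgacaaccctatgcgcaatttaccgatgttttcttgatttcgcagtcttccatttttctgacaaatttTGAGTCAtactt

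The next 3 sequences hold TATCGATA, the DNA replication-related element (DRE), which is bound by the promoter factor DREF. Rpn3 (+ strand, chr2L:19051588-19051878) has its summit at base 173 and a TSS at base 203. Rpn11 (− strand, chr2L:5059968-5060208) has its summit at base 191. Rpt5 (+ strand, chr3R:23752825-23752934) has its summit at base 60 and its TSS at base 52.
Rpn3: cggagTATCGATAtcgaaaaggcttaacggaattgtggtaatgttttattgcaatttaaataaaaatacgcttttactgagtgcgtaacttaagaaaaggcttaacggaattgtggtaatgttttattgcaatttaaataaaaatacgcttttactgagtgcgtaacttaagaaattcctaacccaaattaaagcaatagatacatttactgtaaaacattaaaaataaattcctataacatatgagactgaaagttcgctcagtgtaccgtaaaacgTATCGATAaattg
Rpn11: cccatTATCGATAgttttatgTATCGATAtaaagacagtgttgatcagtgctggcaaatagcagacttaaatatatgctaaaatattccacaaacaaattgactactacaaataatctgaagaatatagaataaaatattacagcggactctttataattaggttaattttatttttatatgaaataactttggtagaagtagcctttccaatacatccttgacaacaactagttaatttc
Rpt5: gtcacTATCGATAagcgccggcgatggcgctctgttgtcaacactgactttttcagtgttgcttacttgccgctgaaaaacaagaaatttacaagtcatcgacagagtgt

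The remaining 3 are shown for comparison, since they hold neither an AP-1 site nor a DRE. Rpt2 (− strand, chr3R:23931420-23931520) has its summit at base 51 and a TSS at base 87, and none of the searched motifs. Rpt6 (+ strand, chrX:21315967-21316091) has its summit at base 51, its TSS at base 86 and a TGACNNNGC match at bases 112 to 120. Prosbeta3 (− strand, chr3R:9006211-9006458) has its summit at base 198, its TSS at base 233 and TGACNNNGC matches at bases 6 to 14 and 13 to 21, which overlap on opposite strands.
Rpt2: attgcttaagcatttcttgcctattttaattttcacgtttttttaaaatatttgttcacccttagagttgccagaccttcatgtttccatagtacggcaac
Rpt6: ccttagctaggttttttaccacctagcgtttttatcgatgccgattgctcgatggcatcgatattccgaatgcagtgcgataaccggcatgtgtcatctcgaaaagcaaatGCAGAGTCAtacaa
Prosbeta3: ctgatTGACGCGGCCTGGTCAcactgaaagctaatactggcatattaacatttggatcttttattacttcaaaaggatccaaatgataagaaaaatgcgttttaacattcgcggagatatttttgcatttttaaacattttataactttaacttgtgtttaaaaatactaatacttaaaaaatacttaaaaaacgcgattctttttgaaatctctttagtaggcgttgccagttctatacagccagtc

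Among the subcomplexes as defined here by gene symbol, the lid had the largest share of bound genes, 5 of 8 (62.5%), and the strongest peaks. The intervals of lid (24.5 to 91.5%) and base (12.2 to 73.8%) overlap widely. When only peaks whose nearest TSS was that of the gene were counted, the lid no longer led the base. The counts were then 3 of 8 lid genes and 4 of 10 base genes. The strongest lid gene was Rpn5 (FBgn0028690), a scaffold subunit, with an IDR peak of signal 273.0 (rank 506 of 3860, chr3R:5789002-5789457). In replicate 2 its best candidate had a signal of 185.8 and ranked 371, and in replicate 4 it had 91.4 and ranked 867. A narrower IDR peak of 138 bp (signal 220.3, rank 812) had its summit closer to the Rpn5 start, 58 bp upstream of it, and the stronger summit lay 263 bp upstream. The stronger summit fell in an intron of the divergent gene Hat1, a histone acetyltransferase gene, and lay 154 bp from a Hat1 TSS. Rpn5 was the only bound member with more than 1 IDR peak in its window, and neither summit had the Rpn5 TSS as its nearest.

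Rpn3, another lid scaffold gene (FBgn0261396), had a signal of 220.5 (rank 811, chr2L:19051532-19051987), with its summit between genes and 30 bp upstream of a TSS. It ranked 755 in replicate 2 (signal 135.1) and 1064 in replicate 4 (signal 83.2). Rpn6, a lid scaffold gene (FBgn0028689), had a signal of 185.2 (rank 1147, chr2R:14752132-14752587) and ranked 1168 in replicate 2 (signal 109.6) and 1379 in replicate 4 (signal 72.1). The Rpn6 summit lay in the first part of the gene, 89 bp upstream of its inner TSS and in an intron of transcripts that begin at the outer one. Rpn5, Rpn3 and Rpn6 were the strongest 3 subunit genes in the pooled list and in each replicate. In replicate 4 Rpn6 was nearly tied with Prosbeta1 (rank 1380, signal 72.1).

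Rpn11 (FBgn0028694) encodes the deubiquitinase that cuts ubiquitin chains from the substrate. Its peak had a signal of 142.4 (rank 1907, chr2L:5059790-5060245), with the summit 228 bp upstream of the TSS, and it ranked 2186 in replicate 2 (signal 80.2) and 1903 in replicate 4 (signal 60.6). Rpn9 (FBgn0028691), a scaffold gene, had a signal of 123.0 (rank 2498, chr3R:23732981-23733436) and ranked 1769 in replicate 2 (signal 90) and 2680 in replicate 4 (signal 49.8). Its summit was in an Rpn9 intron, 198 bp upstream of the inner of the gene's TSSs. The other lid genes had candidates only. Rpn12 ranked 4642 (signal 83.2), Rpn7 ranked 8250 (56.1), and Rpn8, the partner of the deubiquitinase, ranked 16079 (36.2).

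In the base, 4 of 10 genes were bound (40.0%). Of the 6 ATPase genes these were Rpt2, Rpt5 and Rpt6. Rpt2 (FBgn0015282) had a signal of 140.7 (rank 1948, chr3R:23931242-23931697), with ranks of 2787 in replicate 2 (signal 69.9) and 1448 in replicate 4 (signal 70.5). Rpt5 (FBgn0028684) had a signal of 130.6 (rank 2238, chr3R:23752656-23753111), with ranks of 2250 in replicate 2 (signal 78.7) and 2924 in replicate 4 (signal 47.4). Its summit lay 8 bp downstream of the TSS, in the 5′ UTR, the closest of all members. Rpt6 (FBgn0020369) had a signal of 102.0 (rank 3401, chrX:21315789-21316244), 35 bp upstream of its TSS and in an intron of CG1801. Its replicates differed, with rank 5664 in replicate 2 (signal 46.0) and 2619 in replicate 4 (signal 50.3). This was not particular to Rpt6. In replicates 2 and 4, Prosbeta1 ranked 3790 and 1380, and Rpn5 ranked 371 and 867.

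The other ATPase genes, Rpt1, Rpt3 and Rpt4, had no pooled candidate. Rpt1 and Rpt4 had 1 in replicate 4 alone (ranks 5534 and 10135), and Rpt3 had none in any list. The genes of the ubiquitin receptors differed from each other. Rpn13 (FBgn0033886) was bound, with a signal of 120.9 (rank 2569, chr2R:13960158-13960613) and ranks of 2296 in replicate 2 (signal 77.8) and 2798 in replicate 4 (signal 48.6). Rpn10 had a candidate at rank 10378 (signal 48.2). The large scaffold genes of the base, Rpn2 (rank 6959, signal 62.9) and Rpn1 (rank 7084, signal 62.1), had candidates only.

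In the core particle both bound genes belonged to the beta ring, with 2 of 7 (28.6%), and none of the 7 alpha ring genes was bound (interval up to 41.0%). Prosbeta1 (FBgn0010590), which carries the caspase-like proteolytic site, had a signal of 131.9 (rank 2202, chr2R:16014624-16015079). Its ranks were 3790 in replicate 2 (signal 58.7) and 1380 in replicate 4 (signal 72.1), and its summit, 65 bp from its own TSS, lay 56 bp from that of the divergent gene Rrp42, an RNA exosome gene. Prosbeta3 (FBgn0026380), a structural subunit, had the weakest peak of the bound members (signal 101.1, rank 3454, chr3R:9006033-9006488). Its ranks were 2864 in replicate 2 (signal 69.0) and 5274 in replicate 4 (signal 32.7). The genes of the other proteolytic subunits lay below the threshold. Prosbeta5 (chymotrypsin-like) ranked 5155 with a signal of 77.3, and Prosbeta2 (trypsin-like) ranked 5643 with a signal of 72.5.

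The alpha ring genes formed a narrow band. For 6 of the 7 the best candidate had a signal between 41.8 (Prosalpha7, rank 12858) and 57.6 (Prosalpha5, rank 7941), and Prosalpha1 had no candidate in any list. Between these lay Prosalpha6 (rank 8634, signal 54.5), Prosalpha4 (rank 9788, signal 50.1), Prosalpha2 (rank 10222, signal 48.7) and Prosalpha3 (rank 11618, signal 44.8). The Prosalpha6 summit lay 612 bp from the gene's TSS and nearer to that of Npc1a. The Prosalpha4 summit lay 965 bp from the gene's TSS and nearer to that of kat80. Prosalpha3 had no candidate in replicate 2. The remaining beta ring genes were weaker still or spread out. Prosbeta7 ranked 9317 (signal 51.8), Prosbeta6 ranked 24854 (signal 26.9), and Prosbeta4 had a candidate in replicate 2 alone, at rank 28151. Around the threshold, the members just inside were Rpt6 (102.0) and Prosbeta3 (101.1), and those just outside were Rpn12 (83.2) and Prosbeta5 (77.3).

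**Figure D2:**
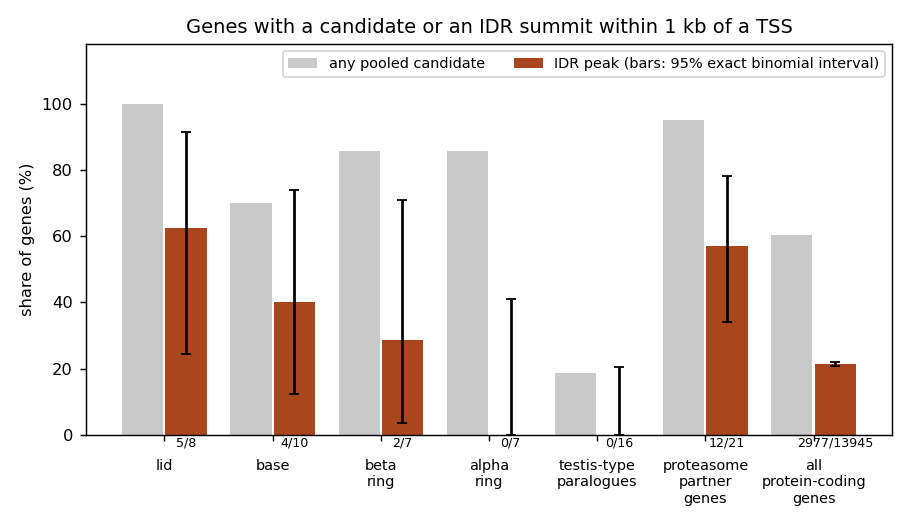
Share of genes (%) with any pooled candidate (grey) or with an IDR summit (brown) within 1 kb of a TSS, for each subcomplex, the paralogues, the partner genes and all protein-coding genes. Error bars are exact binomial 95% intervals and the fractions give bound genes of all genes in the group. Candidates were near 85.7% of alpha ring genes, none of which was bound, and near 18.8% of the paralogues.

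The paralogues had few regions of any strength near their starts. Of the 16, 3 had a pooled candidate (18.8%), compared with 12 of 14 core genes (85.7%), 15 of 18 regulatory genes (83.3%) and 60.2% of all protein-coding genes. These were Prosbeta2R2 (rank 11744, signal 44.5), Rpt3R (rank 17720, signal 34.0) and Prosalpha6T (rank 22513, signal 28.9), and the other 13 had none in any list. The first 2 of these summits lay nearer to the TSS of a neighbour, at 11 bp from CG1116 and 55 bp from Alg12. In replicate 2 there were 2 paralogues with a candidate, and in replicate 4 there were 3. The nearest IDR summit lay a median of 41.0 kb from a paralogue's TSS, compared with 3.48 kb for core genes, 1.34 kb for regulatory genes and 8.07 kb for all genes. The farthest was Prosbeta5R2, at 131.43 kb, and the closest was Rpt6R, at 1.34 kb. Expression was not measured in these embryos, and its part in this difference was not tested.

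The replicates gave nearly the same bound genes. When the 3860 strongest candidates of 1 replicate were used in place of the IDR peaks, 10 subunit genes were bound in replicate 2 (20.8%, against 20.9% of all genes) and 11 in replicate 4 (22.9%, against 22.0% of all genes). In replicate 2 these were 10 of the 11 bound genes, without Rpt6. In replicate 4 they were 10 of the 11, without Prosbeta3, together with Rpn12 (rank 3640). Since the IDR procedure compared these same lists, this overlap is not independent of the calls. Across the 27 subunit genes with a candidate in both lists, Spearman's rho between the ranks was 0.788, and it was 0.832 across all 7394 such genes. Within the 11 bound members rho was 0.536, and it was 0.760 across 2973 bound genes in all. These values are descriptions across genes that share libraries, depth and peak caller.

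**Figure D3:**
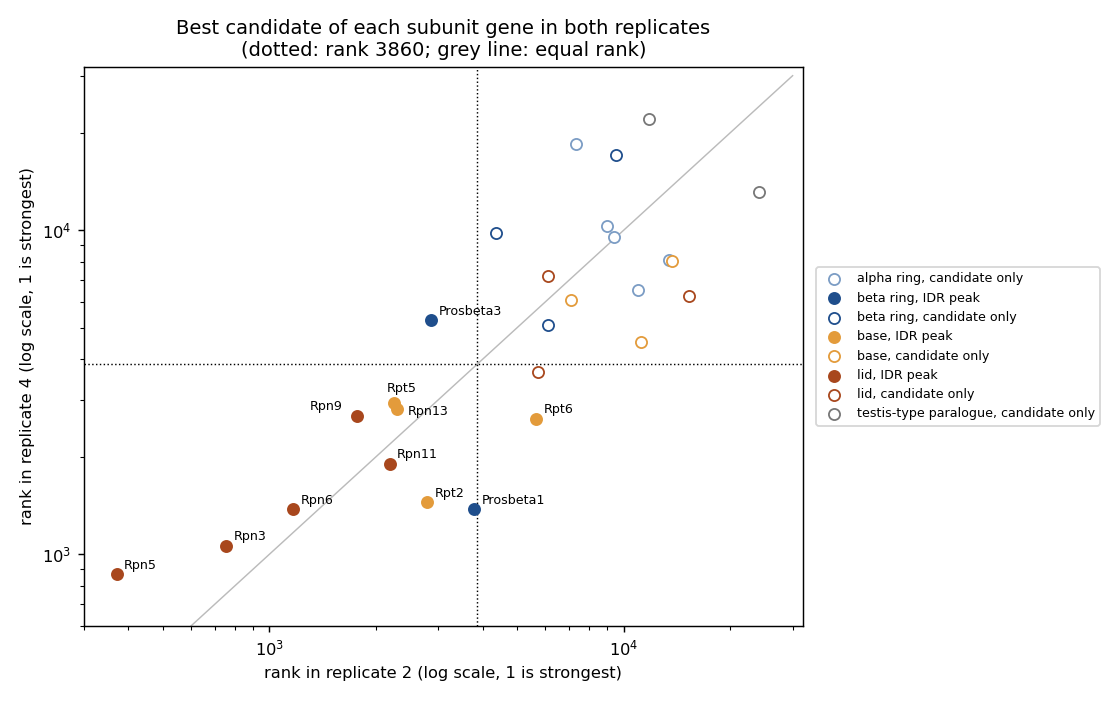
Rank of the best candidate within 1 kb of a TSS in replicate 2 (horizontal) and replicate 4 (vertical), both on log scales with 1 the strongest, for the 27 subunit genes with a candidate in both. Filled points are genes with an IDR peak. Rpn5, Rpn3 and Rpn6 lie at the strong end in both replicates, while Rpt6 and Prosbeta3 each pass rank 3860 (dotted lines) in a single replicate.

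The bound summits sat close to the starts of the subunit genes. The 11 best summits lay 8 to 263 bp from a TSS of the member, with a median of 36.0 bp, against a median of 167.0 bp for the 2977 bound genes of the whole set. They were upstream of the nearest TSS of the gene in 9 of 11. The share downstream of it (18.2%) was close to that of all bound genes (17.5%). The median GC content of the bases within 50 bp of the summit was 33.7% for bound members (24.8% at Rpn3 to 47.5% at Rpt6) and 33.7% for all bound genes. At the 19 members with an unbound candidate, the summit lay a median of 129.0 bp from the TSS, against 229.0 bp for all 5414 such genes.

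Most of these peaks also lay near the start of another gene. In 10 of the 11 bound members (90.9%) a TSS of another protein-coding gene, always on the opposite strand, lay within 1 kb of the summit, against 62.2% of all bound genes. The exception was Rpt6. Among the neighbours were Hat1 (Rpn5), l(2)37Bb (Rpn3), ave (Rpn6), qtc (Rpn11), CG13599 (Rpt2), Rrp42 (Prosbeta1), RanBP3 (Rpt5), CtsL1 (Rpn13) and Iru (Prosbeta3). When only peaks whose nearest TSS was that of the gene were counted, 8 members were bound (16.7%, against 15.5% of all genes), and Rpn5, Rpn9 and Prosbeta1 were lost. A peak between divergent genes cannot be assigned to either from these lists.

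**Figure D4:**
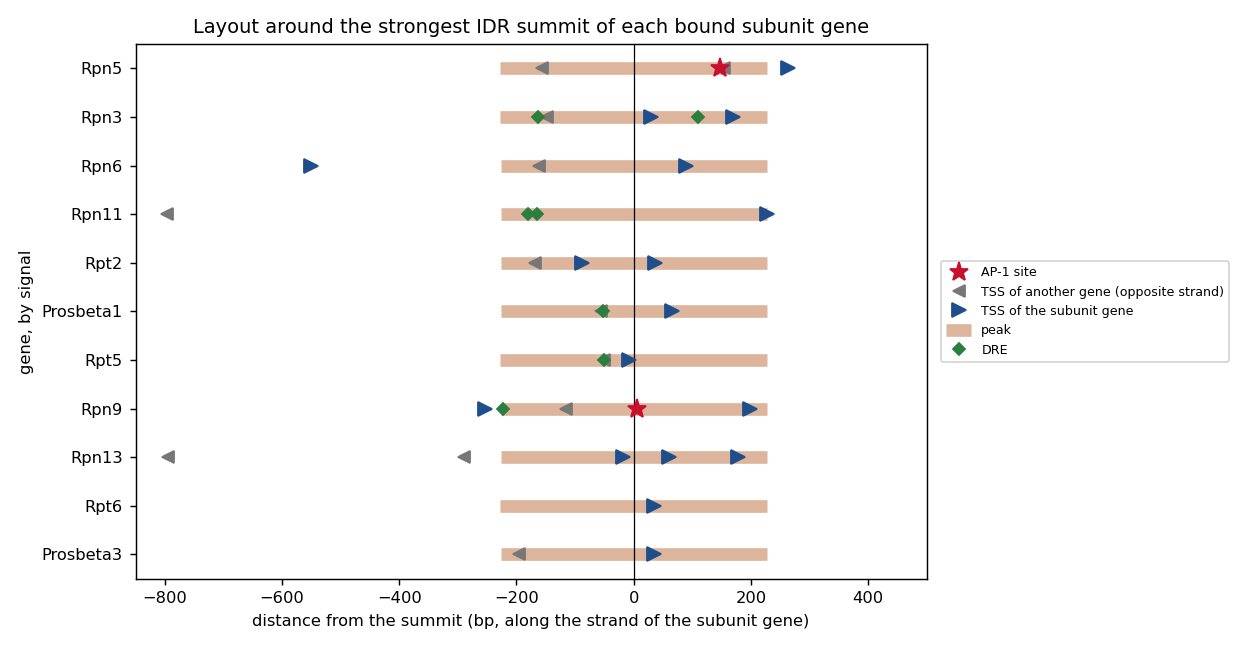
Positions of TSSs, AP-1 sites and DREs relative to the strongest IDR summit of each of the 11 bound subunit genes, in bp along the strand of that gene, with genes ordered by signal. Bands are the deposited peaks, and marks that nearly coincide (as at Prosbeta1 and Rpt5, where a DRE lies at the neighbour's TSS) overlap. The summits lie between the subunit gene's start and that of a divergent neighbour for most genes, and AP-1 sites appear at Rpn5 and Rpn9.

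AP-1 sites were found at few of these peaks, as at few bound genes in all. Within 50 bp of the summit 1 of 11 bound members had one (9.09%), against 124 of all 2977 bound genes (4.17%), and this was Rpn9, whose site at chr3R:23733201-23733207 was centred 5 bp from the summit. Over the whole peak 2 of 11 had one (18.2%), against 298 of all 2977 bound genes (10%). The second was Rpn5, with its site at chr3R:5789374-5789380, 147 bp from its stronger summit and 58 bp from the summit of the narrower peak. The strong peaks of Rpn3 and Rpn6 contained none, and neither did any bound peak of a core gene. The looser form TGANTCA added no bound member at either distance. Within 50 bp it was found at 1 of 11 bound members (9.09%), against 203 of all 2977 bound genes (6.82%). Among the 300 bp promoters of the 48 members (250 bp before to 50 bp after the outermost TSS) 1 held an AP-1 site (2.08%), against 2.49% of all promoters.

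The DRE was found more widely. It occurred in the peaks of 5 of the 11 bound members (45.5%), against 13.7% of all bound genes, with 2 copies each in Rpn3 and Rpn11 and 1 each in Rpn9, Rpt5 and Prosbeta1. The centres of these copies lay 51 to 223 bp from the summit. None of the 11 bound members had a whole copy within 50 bp, against 3.29% of all bound genes. Within 100 bp 2 of 11 had one (18.2%), against 7.93% of all bound genes. In the promoters, 12 of the 32 core and regulatory genes held a DRE (37.5%), against 9.36% of all promoters and 15.2% of those of all bound genes. These promoters belonged to 6 of 14 core genes and 6 of 18 regulatory genes. No promoter window of the 16 paralogues, taken at the outermost TSS, held one, but the candidate of Rpt3R did, 41 bp upstream of its inner TSS. Bound members did not stand apart in this, with 5 of 11 promoters (45.5%), compared with 7 of 19 among members with an unbound candidate (36.8%). Of the cap'n'collar and Maf forms, TGACNNNGC was found in 5 of 32 core and regulatory promoters (15.6%), against 8.63% of all promoters. TGAGNNNGC was found in none of them, against 8.87%. No test was made of any of these shares, and a match describes the letters only.

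Binding was also seen at genes that work with the proteasome. The list of 21 covered transcriptional control, assembly, accessory factors and ubiquitin supply, and was chosen with earlier results of these data known. Of these, 12 were bound (57.1%, interval 34.0 to 78.2%), compared with 22.9% of the subunit genes and 21.3% of all genes. Without the 16 paralogues, none of which was bound, the share of subunit genes was 34.4% (interval 18.6 to 53.2%). Of the 21 partner genes, 20 had a pooled candidate. The intervals of partner and subunit genes overlap. The strongest was Keap1, the inhibitor of cnc (rank 350, signal 322.6), through a peak 856 bp from its TSS and nearer to that of kuk. The gene of cnc itself was bound weakly (rank 3359, signal 103.0; ranks 4693 and 3254 in replicates 2 and 4), and an AP-1 site lay within 50 bp of its summit. Its partner maf-S had a candidate only (rank 13625). The assembly chaperone gene Pomp (rank 1164, signal 183.6) was bound, and PI31, which encodes a proteasome regulator, was not (rank 5371).

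Among genes for proteins that bring substrates to the proteasome, Rad23 (rank 1110, signal 187.7), Ubqn (rank 1116, signal 187.5, nearer to the TSS of dome) and rngo (rank 1712, signal 151.2, nearer to that of Cdc50) were bound. The rngo summit was the only other one in this list with an AP-1 site within 50 bp. Such a site was found at 4.17% of all bound genes, and no test of the difference was made. TER94, the unfolding ATPase gene, was bound (rank 2288, signal 129.1), as was its cofactor gene Ufd1 (rank 3256, signal 104.6), while the cofactor genes Npl4 (rank 8833) and p47 (rank 6779) were not. Of the deubiquitinase genes of the regulatory particle, Uch-L5 was bound (rank 1895, signal 142.9, nearer to the TSS of Jarid2) and Usp14 was not (rank 7288). The polyubiquitin genes Ubi-p5E (rank 2462, signal 124.1) and Ubi-p63E (rank 3316, signal 103.6) were bound. So was the activating enzyme gene Uba1 (rank 3104, signal 107.5), with its summit in a coding exon, 914 bp from its TSS. The ubiquitin fusion genes RpS27A (rank 10241) and RpL40 (rank 10543) were not, nor was the small subunit gene Sem1 (rank 8492), and the activator gene REG had no pooled candidate.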

How the data were processed

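The files used were the narrowPeak lists that the authors deposited in dm6: candidates of replicate 2, of replicate 4 and of both pooled, and the optimal IDR list. Per the file descriptions deposited with the samples, candidates were derived from the alignments and 1 control file, and the IDR list from the 3 candidate lists. The signal of each peak is the value deposited by the authors; no aligner, caller or version is given in the sources used here. The dm3 lists were not analysed here.

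Gene models were those of Ensembl release 115 (19607 TSSs of 13945 protein-coding genes on 6 arms), and sequence was RefSeq Release 6, the same assembly. Every peak fell within its arm lengths. Summits are start plus column 10, and coordinates are 1-based. Ranks are by signal. The base was defined as Rpt1 to Rpt6, Rpn1, Rpn2, Rpn10 and Rpn13, and the lid as the other Rpn genes without R. The small subunit gene Sem1, which was not bound, does not match the symbol rule and was counted among the partner genes. All 21 partner genes were matched, Ufd1-like as Ufd1 through the RefSeq synonyms. Named genes were the members (bound ones singly, others mainly by range and extremes), bound partner genes and genes sharing a member's peak. Unbound partner genes and some further unbound members were named after their values were seen.

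Results are descriptions: with 2 libraries of 1 group no comparison has a replicate error, and no test across genes was made. The members, the lists and the motifs were chosen with earlier results of these data known. Alternatives covered the TSS window, a stricter threshold, peak overlap, the nearest TSS, each replicate alone and the motif window. Code was tested on simulated data. Python 3.11.15, numpy 2.4.6, scipy 1.17.1 and pandas 2.3.3 were used.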

Additional observations from a re-analysis of the deposited data

How the results depend on the processing

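The counts of bound subunit genes, of 48, were 11 with a TSS window of 500 bp (against 18.8% of all genes), 13 with 2 kb (against 26.0%), 12 when any overlap of the peak counted (against 22.3%) and 8 by the nearest TSS (against 15.5%). The stronger 1930 IDR peaks left 4 subunit genes bound (against 12.4% of all genes), with 0 of the core and 4 of the regulatory particle, namely Rpn3, Rpn5, Rpn6 and Rpn11, and 6 partner genes. With 1 replicate left out at a time, using as many of the other's strongest candidates, the counts ranged from 10 to 11 for all subunit genes, 1 to 2 for the core, 8 to 10 for the regulatory particle, 0 to 0 for the paralogues and 11 to 12 for the partner genes. The core count fell to 1 without replicate 2, where Prosbeta3 was lost, and by the nearest TSS, where Prosbeta1 was lost. It was 3 of 14 with 2 kb and by overlap, where Prosbeta6 was added. With 2 kb 1 paralogue, Rpt6R, was bound. Of the 21 partner genes, 10 were bound with 500 bp, 13 with 2 kb, 12 by overlap and 9 by the nearest TSS. The median signal was 67.7 with 500 bp (67.4 for all genes), 72.9 with 2 kb (71.7) and 67.7 by overlap (68.1), and rho was 0.793 with 500 bp and 0.753 with 2 kb. The AP-1 count was 2 of 11 over whole peaks, against 10% of all bound genes. DREs were found in 14 of 32 promoters with 500 bp before to 100 bp after the TSS (against 11.6% of all promoters) and in 9 with 150 bp before to 50 bp after (against 8.21%), windows chosen after seeing the data. No paired analysis was possible because all samples belong to 1 group. Unknown depth limits all weak candidates.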

Other observations

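The Rpn3 start region, under the 2nd strongest subunit peak, contained a long direct repeat. In the printed Rpn3 sequence, bases 16 to 97 and bases 94 to 175 were identical over 82 bp at an offset of 78 bp, so the copies overlap slightly, and the summit at base 173 lay near the end of the second copy. The longest exact repeats in the other 6 printed sequences were 5 to 13 bp. The repeat was noticed after the sequence was seen, and its part in the signal at Rpn3 was not tested.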
